A study of Homo sapiens with 12 samples.

Results

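The response of the hepatocellular carcinoma line MHCC97H to a combination of an mTOR inhibitor and a SHP2 inhibitor was set against the responses of the Hep3B and Huh7 lines. Members were the 6 libraries, of 12 in the series, labelled as untreated or combination in the 3 lines. The measure, called the response difference, was the log2 fold change of a gene in MHCC97H (combination over untreated) minus the mean of its log2 fold changes in Hep3B and Huh7. All 3 are established human liver cancer lines. Treated cells received 100 nM AZD8055, an ATP-competitive inhibitor of the mTOR kinase, together with 5 µM of compound #57, an allosteric inhibitor of the phosphatase SHP2, and untreated cells received neither. Hep3B and Huh7 were exposed for 48 h and MHCC97H for 24 h, so that in every difference given here line and length of exposure cannot be told apart. The other 6 libraries came from each line given AZD8055 alone (100 nM) or compound #57 alone (dose not stated in the labels). Each line and treatment had 1 library.

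The 12 libraries held 10667343 to 15968317 reads of polyadenylated RNA, and the table covered 11548 genes. Values are given as reads per 10000000 reads of the library ("normalised reads"), and folds as log2 fold changes after adding 1 to the normalised reads. Within a line there was no replicate, so a fold change carries only a 95% exact binomial (Clopper-Pearson) interval for counting error. Response differences were tested with limma over all 12 libraries. Its spread is how far Hep3B and Huh7 differed in their responses, and MHCC97H was assumed to vary likewise. Of 11548 genes, 84 had a higher response in MHCC97H (0.727% of genes) and 25 a lower one (0.216%) at an adjusted p under 0.05, with a lowest adjusted p of 0.0146. After each library was centred on its median, 22 were higher and 15 lower. The calls rested on single libraries. Without the combination or the compound #57 library of either Hep3B or Huh7, limma called 0 genes, with 1734 to 1955 genes at an unadjusted p under 0.05. Without the untreated library the counts were 9 higher and 3 lower (Huh7 left out) or 14 higher and 7 lower (Hep3B left out). Without the AZD8055 library they were 62 higher with 32 lower (Huh7) or 33 lower (Hep3B).

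The 10 hepatocyte markers checked (ALB, APOB and the like) set the lines apart before any treatment. Their summed level was 358414 normalised reads in untreated Hep3B and 429494 in untreated Huh7, and 2030 in untreated MHCC97H, where 1 marker, the transthyretin gene TTR, had no read. In the combination libraries the sums were 268893, 402277 and 3839. ALB, which encodes albumin, stood at 210935 normalised reads in untreated Hep3B, 40721 in untreated Huh7 and 303 in untreated MHCC97H. The epithelial markers were of like size in the 3 lines, at 34861, 35507 and 53895. Liver genes therefore start from very different levels in MHCC97H, and the part of that gap in the response differences was not tested.

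mTOR sits in 2 protein complexes that couple growth factor and nutrient signals to protein, lipid and nucleotide synthesis, and it restrains the FOXO transcription factors through the kinase AKT. SHP2, encoded by PTPN11, relays signals from receptor tyrosine kinases to RAS and the ERK kinases. Sterol regulatory element-binding proteins (SREBPs) switch on the genes of cholesterol synthesis and uptake when membrane sterol is low, usually together with the CCAAT-binding factor NF-Y, and mTOR activity favours SREBP processing.

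Genes of sterol synthesis and uptake formed a group that was lower with the combination in Hep3B and Huh7 and higher in MHCC97H. Among the 6 of them that passed the test, 3 had a single promoter window in RefSeq (GRCh38.p14), and these are shown to place the CCAAT letters that most windows of the group hold. Each line gives the 250 bases before the start annotated in RefSeq, plus strand, with the letters CCAAT or their reverse complement ATTGG in capitals. Distances are from that start. The INSIG1 window runs past the gene start in GENCODE, given below, which lies upstream of the RefSeq start.
INSIG1, chr7:155297628-155297877: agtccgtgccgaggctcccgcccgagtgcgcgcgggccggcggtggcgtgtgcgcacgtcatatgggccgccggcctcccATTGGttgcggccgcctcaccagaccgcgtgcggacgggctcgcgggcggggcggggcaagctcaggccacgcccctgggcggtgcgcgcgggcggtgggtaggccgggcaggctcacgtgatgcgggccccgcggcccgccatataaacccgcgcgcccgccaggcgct
MSMO1, chr4:165327419-165327668: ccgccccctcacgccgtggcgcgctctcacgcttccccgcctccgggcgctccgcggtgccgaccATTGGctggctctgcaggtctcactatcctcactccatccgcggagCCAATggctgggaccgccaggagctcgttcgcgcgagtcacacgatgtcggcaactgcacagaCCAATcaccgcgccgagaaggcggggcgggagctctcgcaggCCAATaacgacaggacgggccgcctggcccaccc
TM7SF2, chr11:65111622-65111871: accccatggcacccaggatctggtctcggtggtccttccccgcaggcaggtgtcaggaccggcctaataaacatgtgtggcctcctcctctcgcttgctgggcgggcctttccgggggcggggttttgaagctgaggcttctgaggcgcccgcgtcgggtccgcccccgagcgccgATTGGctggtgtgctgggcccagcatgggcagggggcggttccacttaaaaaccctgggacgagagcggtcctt
INSIG1 held 1 such site, 170 bases before the start, TM7SF2 held 1 at 74 bases, and MSMO1 held 4, at 185, 139, 76 and 34 bases. Of the 25 sterol genes, 18 had a RefSeq window of 300 bases (250 before to 50 after the start), and CCAAT stood on either strand in 18 of their 23 windows (78.3%), against 34.9% of the 12840 windows of all table genes. The share was not particular to them: it was 88.0% for the unfolded protein response list, 82.1% for mitosis and 76.9% for NRF2 targets. The sterol regulatory element core TCACNCCAC was found in 1 of the 23 windows and in 1.10% of all windows. A match here describes letters only.

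All 25 sterol genes were higher with the combination in MHCC97H, with a median log2 fold change of 0.96 and a range from 0.08 (ACAT2) to 2.79 (TM7SF2). In Hep3B 21 of the 25 were lower with a median of -0.63, and in Huh7 22 of the 25 were lower with a median of -0.63. In 24 of 25 genes MHCC97H stood above both other lines, against 38.4% of all 11548 genes, and in 18 of the 25 it did so by 2-fold or more, against 4.07% of the 9898 genes with at least 50 reads in every line. Here and below, those 50 reads had to stand only in the untreated or the combination library of a line, so a gene could pass through either library alone. The median response difference was 1.45, and the median over all genes was 0.02. Of the 25, 6 passed the test, all higher in MHCC97H, among them INSIG1, TM7SF2, MSMO1 and IDI1. Over all 11548 genes 0.727% were called higher and 0.216% lower, and these shares stand beside the calls of every list below.

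**Figure D1:**
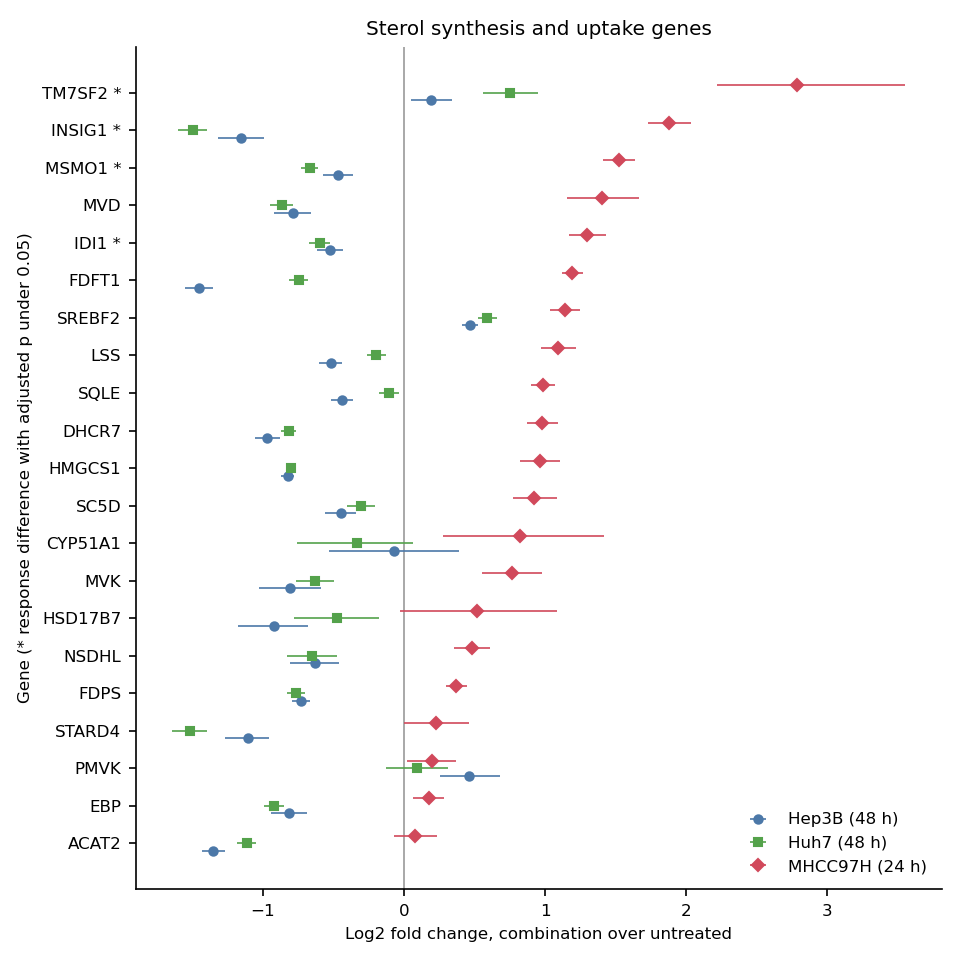
Log2 fold change (combination over untreated, horizontal axis) of 21 of the 25 sterol synthesis and uptake genes (vertical axis) in Hep3B, Huh7 and MHCC97H, 1 point per line with bars for the 95% counting interval. All 21 MHCC97H points lie above 0, from 0.08 to 2.79, while 18 Hep3B and 18 Huh7 points lie below it.

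INSIG1 encodes the endoplasmic reticulum protein that retains the SREBP escort SCAP when sterol is plentiful, and its gene is itself an SREBP target (chromosome 7, 155297776 to 155310235, plus strand, GRCh38). It went from 827 to 372 normalised reads in Hep3B and from 2335 to 826 in Huh7, but from 356 to 1313 in MHCC97H. MHCC97H was thus the lowest of the 3 untreated and the highest of the 3 with the combination. The log2 fold changes were -1.15 (interval -1.32 to -0.99), -1.50 (-1.60 to -1.40) and 1.88 (1.73 to 2.03), and the response difference was 3.20 ± 0.27 (SE, limma adjusted p = 0.0146).

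MSMO1, a sterol C4 methyl oxidase, went from 1480 to 1069 normalised reads in Hep3B, from 4596 to 2893 in Huh7 and from 652 to 1873 in MHCC97H, with a response difference of 2.09 ± 0.26 (SE, limma adjusted p = 0.0386). IDI1, which isomerises isopentenyl diphosphate, differed by 1.86 (limma adjusted p = 0.0403). TM7SF2, a sterol C14 reductase, was higher with the combination in all 3 lines, from 640 to 733 in Hep3B, from 250 to 423 in Huh7 and from 17.7 to 128 in MHCC97H, and differed by 2.31. The only gene of the list with a response difference below 0 was PMVK, phosphomevalonate kinase, at -0.08. HMGCS1, which makes HMG-CoA, showed the same pattern without passing the test (8811 to 4980, 19769 to 11352 and 498 to 972; limma adjusted p = 0.0525).

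The untreated sterol programme was low in MHCC97H. Over the 25 genes the summed level was 64432 normalised reads in untreated Hep3B, 91279 in untreated Huh7 and 20028 in untreated MHCC97H, and 22 of the 25 genes were lowest in MHCC97H. With the combination the sums were 43869, 62081 and 36347, and 14 of 25 genes were lowest in MHCC97H.

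The drugs given alone were set beside the combination for these genes. Their fold changes use the same untreated libraries as the combination, so they are set side by side only. With AZD8055 alone 21, 22 and 21 of the 25 genes were lower in Hep3B, Huh7 and MHCC97H, with medians of -0.22, -0.65 and -0.48. With compound #57 alone 23, 24 and 24 of them were higher, with medians of 0.62, 0.51 and 1.14. The combination library set directly against the AZD8055 library, with no untreated library involved, had 25 of 25 genes higher in MHCC97H (median log2 difference 1.46), but 4 of 25 in Hep3B (median -0.41) and 12 of 25 in Huh7 (median -0.01). Set against the compound #57 library, the combination had 20 of 25 genes lower in MHCC97H (median -0.24), 24 in Hep3B (-1.30) and 23 in Huh7 (-1.11).

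**Figure D2:**
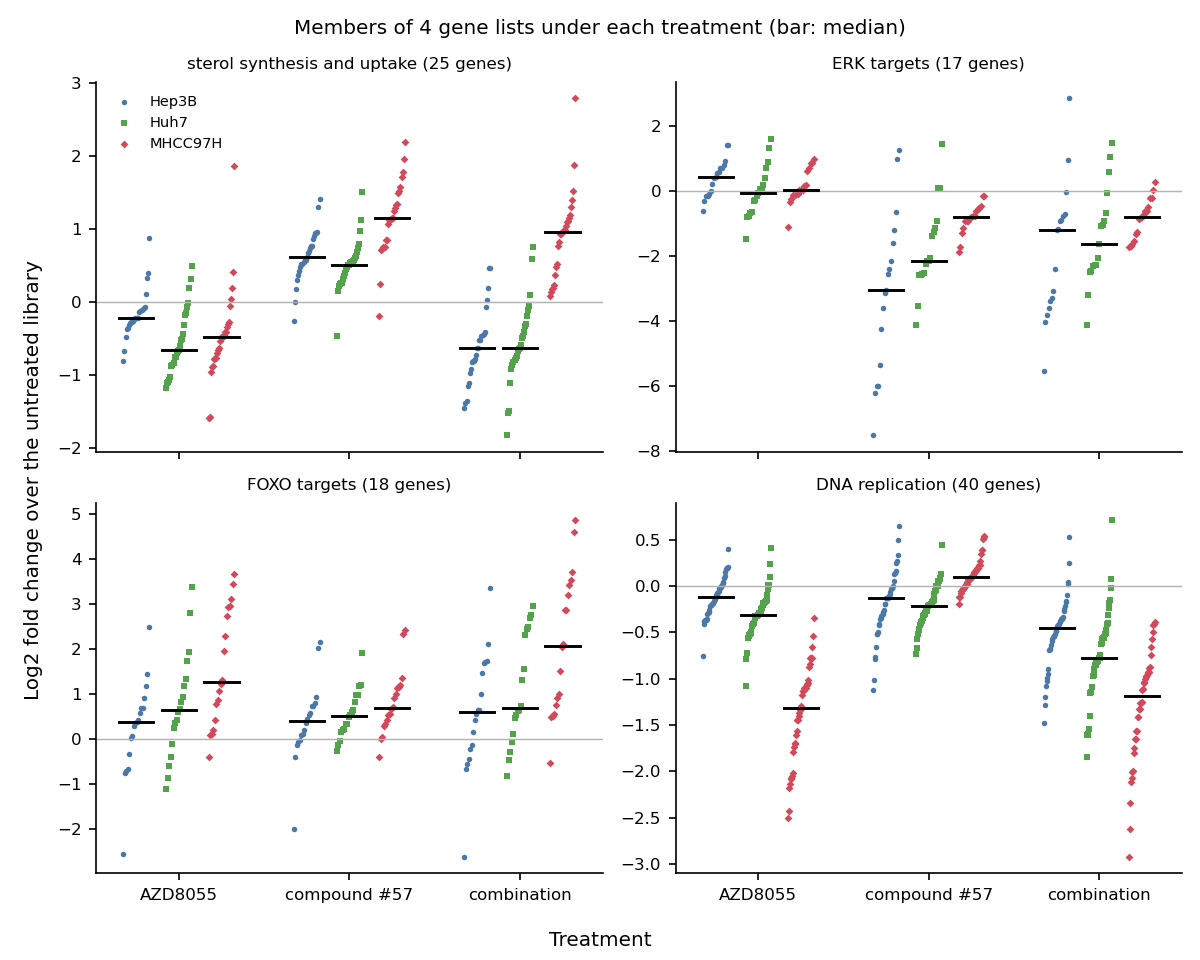
Log2 fold change over the untreated library (vertical axis) of each member of 4 gene lists under AZD8055, compound #57 and the combination (horizontal axis), 1 point per gene, coloured by line, with a bar at the median. Sterol medians in MHCC97H are -0.48, 1.14 and 0.96 for the 3 treatments, against -0.22, 0.62 and -0.63 in Hep3B.

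Fatty acid synthesis genes, the other arm of SREBP control, were higher with the combination for 1 of 15 in Hep3B, 1 of 15 in Huh7 and 7 of 15 in MHCC97H. The medians were -0.61 in Hep3B, -1.16 in Huh7 and -0.09 in MHCC97H. MHCC97H stood above both other lines for 12 of 15 genes, against 38.4% of all genes. It did so by 2-fold or more for 5, against 4.07% of genes with at least 50 reads in every line. FASN, the fatty acid synthase, went from 24777 to 9814 and from 10967 to 4022 normalised reads in Hep3B and Huh7, and stood at 7184 and 7558 in MHCC97H (difference 1.46, limma adjusted p = 0.0628). SCD, the stearoyl-CoA desaturase, stood at 5996 and 7591 in MHCC97H against 34273 and 10346 in Hep3B. Only PNPLA3, a lipid droplet lipase under SREBP control, passed the test. It went from 405 to 228, from 158 to 52.5 and from 22.3 to 95.4 normalised reads, a difference of 3.25 ± 0.45 (SE, limma adjusted p = 0.0453). Of 5 LXR target genes for sterol efflux, all 5 lay above both other lines, with a median difference of 0.76 and none passing the test.

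Most FOXO target genes were higher with the combination in each line, 12 of 18 in Hep3B, 14 in Huh7 and 17 in MHCC97H. The medians of the 18 genes were 0.59 in Hep3B, 0.68 in Huh7 and 2.08 in MHCC97H (2.05 with SESN3, which had no read in untreated MHCC97H, set at its bound), and the median response difference was 0.94. MHCC97H stood above both others for 12 of 18 genes, against 38.4% of all genes. It did so by 2-fold or more for 7, against 4.07% of genes with at least 50 reads in every line. Of the 18 genes, 15 had such reads. ERBB3, which encodes the HER3 receptor for neuregulins, was the gene of the list that passed the test. It stood at 2505 and 2796 normalised reads in Hep3B and at 3643 and 3437 in Huh7, and went from 412 to 3032 in MHCC97H. MHCC97H was the lowest line untreated and lay between the other lines with the combination. The difference was 2.84 ± 0.26 (SE, limma adjusted p = 0.0183). ERBB3 was also the only one of 21 receptor tyrosine kinases in the table to pass. The median difference of that list was -0.09, and 0.19 without the Hep3B libraries.

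TXNIP, an inhibitor of thioredoxin and of glucose uptake, went from 27.6 to 692 normalised reads in MHCC97H, from 291 to 1641 in Huh7 and from 2443 to 2076 in Hep3B. Its lines did not share a direction, and the difference of 3.47 did not pass (limma adjusted p = 0.237). PIK3IP1, a negative regulator of PI3 kinase, had 1 read in untreated MHCC97H and 50.9 normalised reads with the combination (log2 fold change interval 3.52 to 11.38), against 68.4 and 100 in Hep3B. SESN3, a sestrin that restrains mTORC1, was 4.21-fold higher in MHCC97H when the untreated library was set at 3 reads. That ratio leaves out the counting error of the combination reads. In Hep3B SESN3 went from 1384 to 224. CCNG2, a cyclin found in quiescent cells, went from 78.3 to 919 in MHCC97H, 349 to 544 in Hep3B and 349 to 1022 in Huh7. On the other side, the stress gene GADD45B had a response difference of -0.99.

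Of 17 targets of ERK signalling, 15, 14 and 15 were lower with the combination in Hep3B, Huh7 and MHCC97H. The medians of the 17 genes were -1.19, -1.61 and -0.78, with a median response difference of 1.28. In 10 of 17 genes MHCC97H stood above both other lines, against 38.4% of all genes. It did so by 2-fold or more in 5, against 4.07% of genes with at least 50 reads in every line. On the other side 3 genes stood below both, against 35.1% of all genes, and 2 did so by 2-fold or more, against 2.43%. EGR1, an immediate-early transcription factor, went from 798 to 16.2 normalised reads in Hep3B, from 181 to 9.46 in Huh7 and from 1420 to 778 in MHCC97H, which kept more than the untreated level of Huh7. Its difference of 3.96 ± 1.35 (SE) did not pass (limma adjusted p = 0.213). SPRY1, a feedback inhibitor of RAS signalling, went from 402 to 32.4, from 299 to 53.3 and from 270 to 193. FOS, the partner of JUN, had log2 fold changes of -2.38, -1.08 and 0.27. The only call of the list was in the other direction. PHLDA1 went from 1146 to 2253 and from 714 to 1490 in Hep3B and Huh7 and from 4110 to 2320 in MHCC97H, a difference of -1.84 ± 0.22 (SE, limma adjusted p = 0.0345). DUSP4, a nuclear ERK phosphatase, had the same pattern (log2 fold changes 2.86, 1.49 and -0.60; limma adjusted p = 0.0893).

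With compound #57 alone the ERK target medians were -3.05 in Hep3B, -2.14 in Huh7 and -0.80 in MHCC97H, and 14, 13 and 4 of the 17 genes were 2-fold or more lower. The combination library stood above the compound #57 library in 14 of 17 genes in Hep3B (median 1.28), 12 in Huh7 (0.31) and 8 in MHCC97H (-0.00). The genes of the drug targets did not pass the test. MTOR had a response difference of -0.22 (limma adjusted p = 0.807), and PTPN11 one of -0.35 ± 0.26 (SE, limma adjusted p = 0.568).

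Genes of DNA replication and of mitosis lay on opposite sides. Among 40 DNA replication genes, all 40 were lower with the combination in MHCC97H (median -1.19, 25 by 2-fold or more), 36 in Hep3B (median -0.46, 5 by 2-fold) and 38 in Huh7 (median -0.78, 10 by 2-fold). The response difference was below 0 for 37 of 40, with a median of -0.58, MHCC97H stood below both other lines for 35 of 40 against 35.1% of all genes, and none passed the test. The transcription factor E2F1 went from 713 to 176 normalised reads in MHCC97H, from 857 to 604 in Huh7 and stood at 322 and 381 in Hep3B (difference -1.88, limma adjusted p = 0.054). MCM10, a replication initiation factor, went from 698 to 91.4 in MHCC97H, from 616 to 291 in Hep3B and from 717 to 234 in Huh7. UNG, a uracil glycosylase, was an exception at 0.36. With AZD8055 alone 32 of the 40 genes were 2-fold or more lower in MHCC97H (median -1.31), none in Hep3B (median -0.12) and 1 in Huh7 (median -0.31), while the compound #57 medians were -0.13, -0.21 and 0.09. In MHCC97H the combination library stood 0.07 above the AZD8055 library at the median of this list.

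The 32 mitosis genes showed the opposite order at a smaller size. Their medians were -0.86, -0.98 and -0.57, and 24 of 32 stood above both other lines, with none 2-fold away and none passing the test. Over all genes 38.4% stood above both. KIF20A, a kinesin of cytokinesis, stood at 839 and 841 normalised reads in MHCC97H and went from 1113 to 607 in Hep3B and from 1202 to 521 in Huh7. Of 12 aminoacyl-tRNA synthetases 11 were lower in Hep3B and 12 in Huh7 and in MHCC97H, with medians of -0.52, -0.75 and -1.06, and 8 of 12 stood below both. The 80 cytosolic ribosomal protein genes had medians of 0.19, 0.26 and 0.04, and 55 of 80 stood below both. The share below both over all genes was 35.1%.

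**Figure D3:**
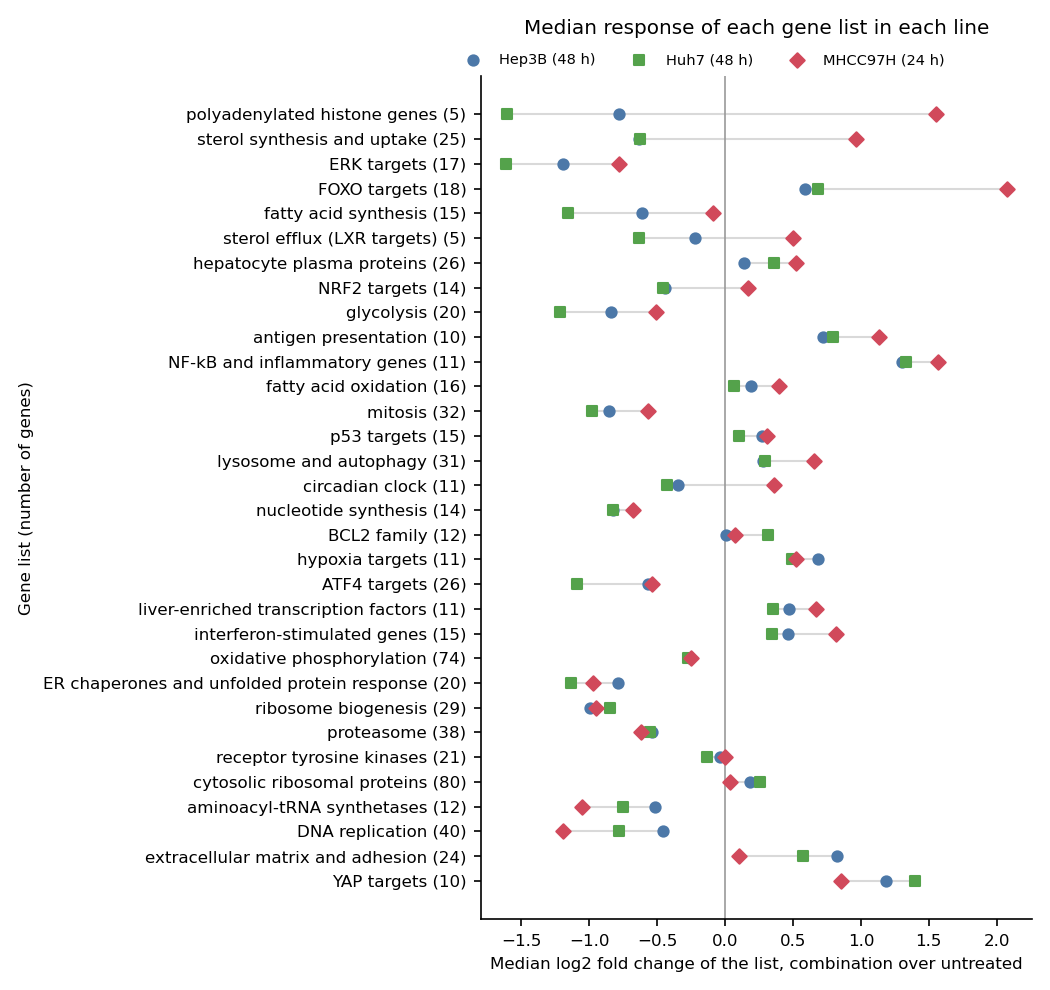
Median log2 fold change (combination over untreated, horizontal axis) of each gene list with at least 5 genes in the table (vertical axis, number of genes in brackets) in Hep3B, Huh7 and MHCC97H, ordered by median response difference. The polyadenylated histone and sterol lists stand at the top (2.51 and 1.45), and the DNA replication and YAP lists stand near the bottom (-0.58 and -0.69).

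Opposite responses of 2-fold or more were rare. Of 9898 genes with at least 50 reads in the untreated or combination library of every line, 13 were 2-fold or more higher in MHCC97H and 2-fold or more lower in both other lines (0.131%), and 5 were the reverse (0.0505%). A gene high in a single condition could pass this filter through that library alone, so the counts and distances include genes with few reads in the other library. By distance alone, 403 genes stood 2-fold or more above both other lines (4.07%) and 241 below both (2.43%). Across those 9898 genes the responses of Hep3B and Huh7 correlated at Pearson's r = 0.75 (Spearman's rho 0.74), those of MHCC97H and Hep3B at 0.52 (0.56) and those of MHCC97H and Huh7 at 0.55 (0.57). These correlations are across genes, which are not independent, and the first pair also shares its exposure time.

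**Figure D4:**
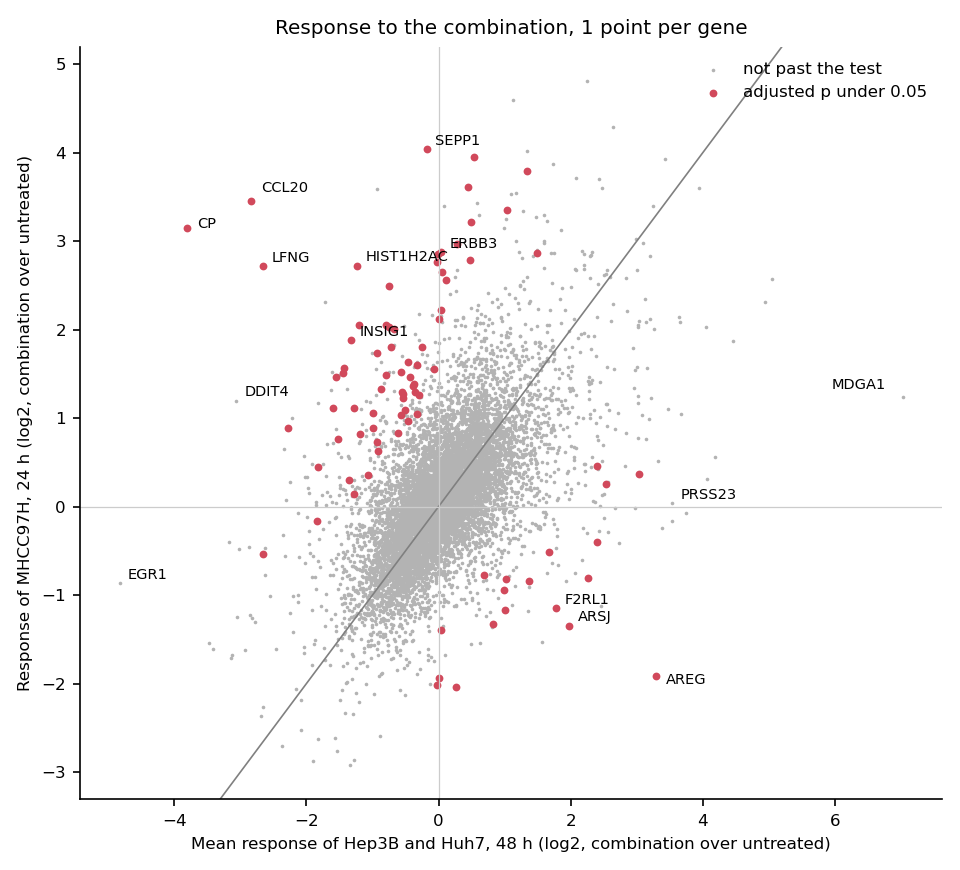
Log2 fold change (combination over untreated) in MHCC97H (vertical axis) against the mean of Hep3B and Huh7 (horizontal axis), with the line of equal response drawn. Each point is a gene with a usable symbol, among the 9898 with at least 50 reads in every line. Red points passed limma at an adjusted p under 0.05, with CP, CCL20 and LFNG at upper left (6.97, 6.30 and 5.37 from the line) and AREG at lower right (-5.20).

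CP, which encodes the ferroxidase ceruloplasmin, a copper-carrying plasma protein, had the largest distance. It went from 1419 to 59.9 normalised reads in Hep3B, from 2106 to 248 in Huh7 and from 683 to 6084 in MHCC97H (chromosome 3, 149162410 to 149221829, minus strand). MHCC97H was the lowest line untreated and the highest with the combination. Its difference was 6.97 ± 1.18 (SE, limma adjusted p = 0.0499), just under the threshold. Compound #57 alone gave log2 fold changes of -3.89, -2.01 and 1.51.

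CCL20, a chemokine for CCR6-bearing lymphocytes and dendritic cells, went from 2214 to 203 in Hep3B, from 1671 to 351 in Huh7 and from 9.98 to 120 in MHCC97H, a difference of 6.30 ± 0.77 (SE, limma adjusted p = 0.0345). MHCC97H remained below both other lines. The 11 inflammatory genes of its list had medians of 1.30, 1.33 and 1.56. Of them 6 stood above both other lines and 3 below, 3 on each side by 2-fold or more, and only CCL20 passed the test. Over all genes 38.4% stood above both and 35.1% below. Among genes with at least 50 reads in every line, 4.07% stood above and 2.43% below by 2-fold or more. CXCL8, which encodes the neutrophil chemokine interleukin 8, went from 97.5 to 776, from 105 to 1066 and from 61.4 to 184.

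LFNG, a glycosyltransferase that modifies Notch receptors, went from 66.6 to 15.4, from 124 to 12.04 and from 46.8 to 315 normalised reads (difference 5.37, limma adjusted p = 0.0464). DDIT4, the stress-induced mTORC1 inhibitor REDD1, went from 913 to 77.7 and from 212 to 34.4 in Hep3B and Huh7 and from 147 to 338 in MHCC97H, and its difference of 4.26 ± 0.90 (SE) missed the threshold (limma adjusted p = 0.0765). PLD1, a phospholipase D, went from 1523 to 467, from 1033 to 456 and from 174 to 496, so that the 3 lines ended at near equal levels (difference 2.95, limma adjusted p = 0.0272). ADCK3, a kinase-like protein of coenzyme Q synthesis, differed by 3.00 (limma adjusted p = 0.0468). METTL7A (4.03), MTUS1 (3.00) and PPM1H (2.94) showed the same pattern without passing.

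**Figure D5:**
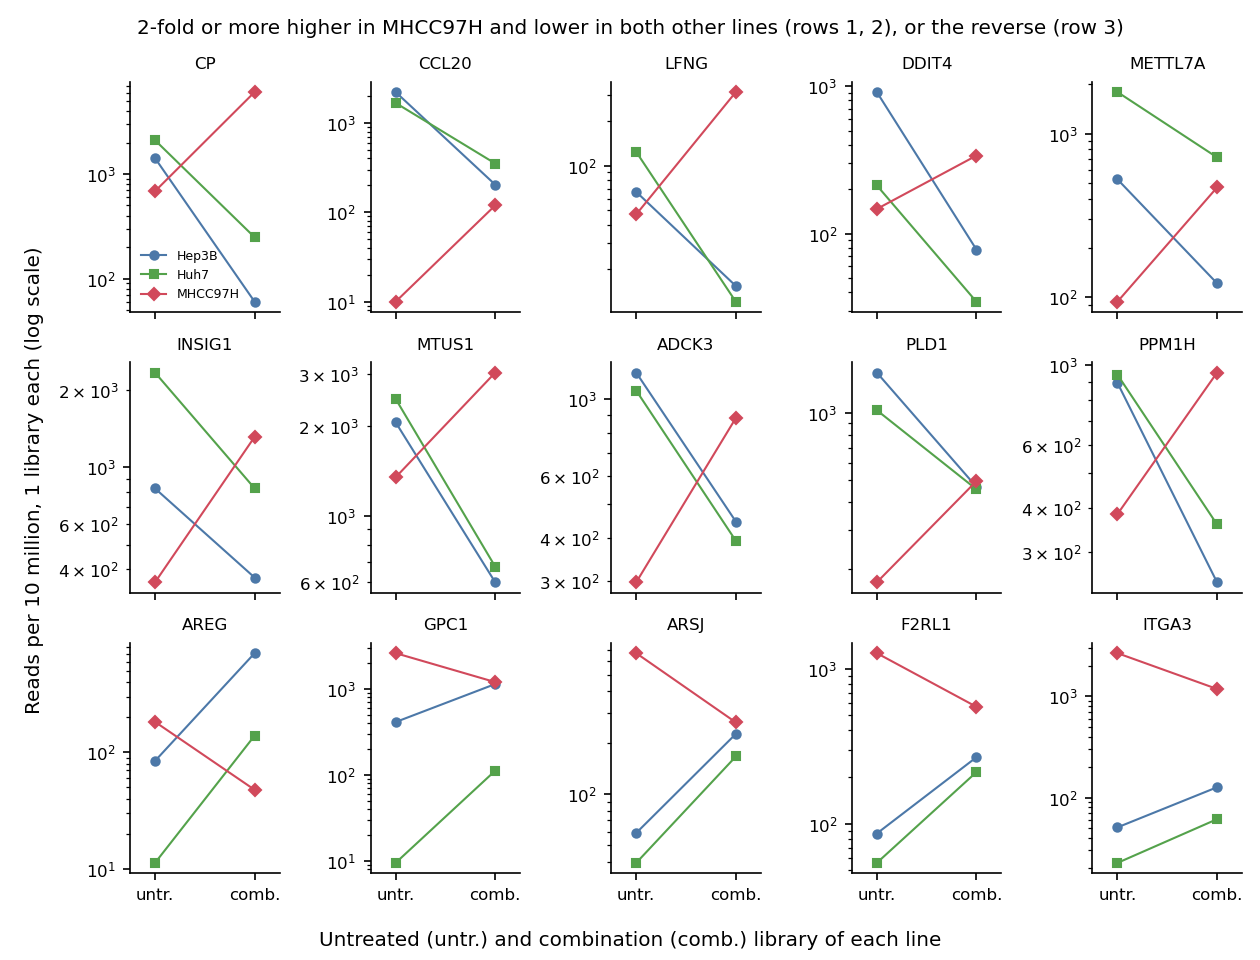
Normalised reads (reads per 10000000, vertical log axis, 1 library per point) in the untreated and combination libraries of each line (horizontal axis) for 10 genes that were higher in MHCC97H and lower in both other lines, and for the 5 genes with the reverse pattern. CP goes from 683 to 6084 in MHCC97H and from 1419 to 59.9 in Hep3B, and AREG from 183 to 47.7 and from 84.4 to 709.

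AREG, which encodes the EGF receptor ligand amphiregulin, had the largest response difference among the 5 genes that were lower in MHCC97H and higher in both others. It went from 84.4 to 709 normalised reads in Hep3B, from 11.3 to 139 in Huh7 and from 183 to 47.7 in MHCC97H (chromosome 4, 74445136 to 74455005, plus strand), so the line that was highest untreated was lowest with the combination. The log2 fold changes were 3.06 (interval 2.76 to 3.40), 3.52 (2.92 to 4.42) and -1.92 (-2.37 to -1.52), and the difference was -5.20 ± 0.39 (SE, limma adjusted p = 0.0146). AZD8055 alone gave 2.95, 3.57 and -2.09.

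The other genes with this pattern were F2RL1, ARSJ, GPC1 and ITGA3. F2RL1, the protease-activated receptor PAR2, went from 86.2 to 268, from 55.7 to 215 and from 1258 to 567 (difference -2.93 ± 0.30, SE, limma adjusted p = 0.0264). ARSJ, a sulfatase, went from 59.1 to 225, from 39.5 to 166 and from 669 to 263 (difference -3.33, limma adjusted p = 0.0345). GPC1, a heparan sulfate proteoglycan, and ITGA3, an integrin subunit of laminin receptors, gave differences of -3.58 and -2.53 and did not pass (limma adjusted p = 0.164 and 0.245). ITGA3 stood at 2679 normalised reads in untreated MHCC97H against 50.6 and 22.5, and MHCC97H was the highest of the 3 untreated lines for all 5 genes. The untreated libraries enter the fold changes by which these 5 were picked, so the choice itself favours that order.

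For other genes with a large distance the fold change was large in Hep3B and Huh7 and smaller or downward in MHCC97H. PRSS23, a secreted serine protease, went from 140 to 3060 in Hep3B and from 395 to 2464 in Huh7 and stood at 1127 and 1160 in MHCC97H (limma adjusted p = 0.103). FHL2, a LIM-domain cofactor, went from 15.9 to 97.2, from 72.6 to 293 and from 597 to 341 (difference -3.07, limma adjusted p = 0.0468). CLCF1, a cytokine of the interleukin 6 family, differed by -2.79 (limma adjusted p = 0.0429). MDGA1, an adhesion molecule, had no read in untreated Huh7. With that library set at 3 reads, it was 52.2-fold higher there with the combination. It went from 1.87 to 495 in Hep3B and from 357 to 844 in MHCC97H (limma adjusted p = 0.296). DPYSL3, MAPK11, FLNC, VGLL3, EEF1A2 and MPP1 were also among the 15 genes furthest below both other lines, at distances from -3.53 to -2.52, and did not pass (limma adjusted p from 0.0628 to 0.197).

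Matrix and YAP target genes leaned the same way as lists. The 24 matrix and adhesion genes had medians of 0.82, 0.58 and 0.10, and 7 stood 2-fold or more below both other lines and 3 above. Among genes with at least 50 reads in every line, 2.43% stood so far below and 4.07% above. Of the 24 genes, 18 had such reads. Their median difference of -0.59 was -0.50 with PLAU, which had no read in untreated Hep3B, at its bound, and -0.12 without the Hep3B libraries. LOXL2, a collagen cross-linking oxidase, went from 21.6 to 100.4 and from 111 to 358 in Hep3B and Huh7 and from 243 to 135 in MHCC97H. LOX, of the same family, went the other way, from 1205 to 46.2 and from 1676 to 122, with 16.1 and 17.0 in MHCC97H. The only call of this list was ITGA2, the collagen receptor subunit, which was lower with the combination in all 3 lines and least so in MHCC97H (difference 2.12, limma adjusted p = 0.0468). Of 10 YAP target genes 8 stood below both other lines, with medians of 1.18, 1.39 and 0.85, and none passed the test. Over all genes 35.1% stood below both. ANKRD1 went from 759 to 8202 in Hep3B, from 894 to 5523 in Huh7 and from 49.9 to 217 in MHCC97H.

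Histone genes with polyadenylated transcripts had the largest list median. All 5 in the table stood 2-fold or more above both other lines, with medians of -0.78, -1.60 and 1.55 and a median difference of 2.51. Among genes with at least 50 reads in every line 4.07% did so, and 4 of the 5 had such reads. HIST1H2AC went from 243 to 133, from 1284 to 421 and from 55.3 to 371 normalised reads (difference 3.96 ± 0.39, SE, limma adjusted p = 0.0252), and HIST1H1C from 100.3 to 45.4, from 1359 to 342 and from 113 to 315 (difference 3.03, limma adjusted p = 0.0453). Histone genes are near-identical in sequence, so reads may have been split between copies in counting.

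Several secreted liver proteins had a higher response in MHCC97H from a very low start. SEPP1, which encodes selenoprotein P, the selenium carrier of plasma, went from 38.4 to 649 normalised reads in MHCC97H, and stood at 3564 and 4188 in Hep3B and at 14290 and 9471 in Huh7 (difference 4.23 ± 0.35, SE, limma adjusted p = 0.0146). LRG1, a plasma glycoprotein, went from 16.1 to 95.4 in MHCC97H against 757 to 416 and 182 to 118 (difference 3.24, limma adjusted p = 0.0273). FGL1, a fibrinogen-like protein of hepatocytes, went from 179 to 999 in MHCC97H (difference 3.22, limma adjusted p = 0.0758). TF, which encodes transferrin, stood at 36.1 and 88.9 in MHCC97H against 30705 and 20457 in Hep3B (difference 1.82, limma adjusted p = 0.0472). Among 26 plasma protein genes, CP and TF passed, both higher, against 0.727% of all genes called higher, and 14 had under 50 reads in both libraries of at least 1 line. Of the 26, 16 stood above both other lines and 6 below, against 38.4% and 35.1% of all genes, with a median difference of 0.57. ALB did not share the pattern, with log2 fold changes of -0.22, 0.75 and -0.24.

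PIPOX, the peroxisomal sarcosine oxidase, went from 2.30 to 50.1 normalised reads in MHCC97H and stood at 37.5 and 63.2 in Hep3B and 40.7 and 51.6 in Huh7, so that the lines ended close together (difference 3.42, limma adjusted p = 0.0478). In the untreated MHCC97H library 2.30 normalised reads are 3 reads, so the size of this fold change is poorly fixed. MECOM, a transcription factor, went from 427 to 97.2, from 1344 to 249 and from 164 to 305 (difference 3.17, limma adjusted p = 0.0453). IGFBP3, an IGF-binding protein, went from 16.1 to 205 in MHCC97H, from 638 to 117 in Hep3B and from 86.4 to 129 in Huh7 and did not pass (limma adjusted p = 0.113).

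Among the metabolic lists, glycolysis genes had medians of -0.84, -1.22 and -0.51, with 3, 3 and 7 of 20 higher in Hep3B, Huh7 and MHCC97H. In 13 of 20 MHCC97H stood above both, against 38.4% of all genes. HK2, the inducible hexokinase, went from 3847 to 1112 and from 1441 to 624 in Hep3B and Huh7 and from 5.37 to 25.1 in MHCC97H (limma adjusted p = 0.09). NQO1, a quinone reductase under NRF2, went from 3331 to 801 and from 5182 to 881 and stood at 15427 and 16194 in MHCC97H (difference 2.38, limma adjusted p = 0.0968). CTSL, the lysosomal protease cathepsin L, was the call among 31 lysosome and autophagy genes, from 167 to 322, from 343 to 565 and from 6713 to 2666 (difference -2.16 ± 0.25, SE, limma adjusted p = 0.0338). The oxidative phosphorylation, proteasome, ribosome biogenesis, unfolded protein and ATF4 target lists had median differences between -0.07 and 0.07 and no call, and the sign turned under another setting for each of them but the proteasome list.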

How the data were processed

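RNA was sequenced from polyA+ stranded libraries of Hep3B, Huh7 and MHCC97H cells, 1 library for each line and treatment, 12 in all. The aligner, counter and normalization are not given in the sources used here, and the build is hg38 per the labels. The values deposited by the authors were log2 values. Their form was inferred from the values themselves: reads brought to a total of 10000000 in each library, with 1 added before the log and 0.001 after it. Undoing this gave whole reads for 100% of values. The libraries held 10667343 to 15968317 reads, of which the table held 98.6% to 99.2%. Intervals cover counting error only, and floors cover it only for the library with no read.

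Response differences were tested with limma 3.58.1 (R 4.3.3) on log2(normalised reads + 1), with terms for cell line, treatment and MHCC97H by treatment, 3 residual degrees of freedom and Benjamini-Hochberg adjustment over all 11548 genes. Each group had 1 sample, so the spread behind each p-value comes only from how Hep3B and Huh7 differed. Distance, the log2 fold change of MHCC97H minus that of the nearer of the other lines, was taken over 9898 genes with at least 50 reads in the untreated or combination library of every line. The fit was also run on simulated data, in which MHCC97H was given the same spread as the other lines. That run could not check the assumption that MHCC97H varies likewise.

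The gene lists were written by hand, and the members and lists were chosen with earlier results of these data known. Named genes were the 15 furthest on each side by distance, up to 10 per side with 2-fold opposite responses, the 3 largest differences of a list with the largest of opposite sign, MTOR and PTPN11. Other genes were named after their values were seen: calls within a list, and genes given for their role. Coordinates are from GENCODE v44 (GRCh38), in which 91.4% of table names matched. Promoter windows are from RefSeq. Some genes that the rule names are not reported here. Alternatives were a pseudocount of 10, centred libraries, a filter on reads, voom, fewer libraries and no cell line term.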

Additional observations from a re-analysis of the deposited data

Results flagged for a closer look

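The responses of MHCC97H and of the other lines differed by the test of the difference itself (limma, adjusted p under 0.05) for 17 of the genes named by distance, by opposite responses or as leading sterol genes. With a higher response in MHCC97H these were CP (6.97), CCL20 (6.30), LFNG (5.37), SEPP1 (4.23), HIST1H2AC (3.96), PIPOX (3.42), LRG1 (3.24), INSIG1 (3.20), MECOM (3.17), ADCK3 (3.00), PLD1 (2.95) and TM7SF2 (2.31). With a lower response they were AREG (-5.20), ARSJ (-3.33), FHL2 (-3.07), F2RL1 (-2.93) and CLCF1 (-2.79). All are log2 response differences, in which line and length of exposure cannot be told apart. These genes were named for large differences in the same libraries, so the test is no separate support for them. Over all 11548 genes 0.727% were called higher and 0.216% lower. Because the 17 come from genes picked for size, their number cannot be judged against those shares. The calls rested on single libraries of Hep3B and Huh7. Some calls among the named genes were lost with voom, centred libraries or a pseudocount of 10, and CP lay just under the threshold. PIPOX had only 3 reads in untreated MHCC97H.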

How the results depend on the processing

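Of 84 higher and 25 lower calls, a pseudocount of 10 gave 24 and 13 (36 of the 109 genes kept), centred libraries 22 and 15 (37 kept), voom on whole reads 18 and 11 (27 kept), and the 6 untreated and combination libraries alone 93 and 49 (69 kept). The cell line term pairs the libraries of a line. Without it (no replicate block) limma called 0 and 0, with 337 genes at an unadjusted p under 0.05. Leaving out single Hep3B or Huh7 libraries, an alternative chosen after seeing the data, gave 0 to 62 higher and 0 to 33 lower calls; leaving out a whole line leaves no residual degrees of freedom, so no limma count was made. With 1 of the other lines left out, 699 to 712 genes stood 2-fold or more above the line that remained, and 508 to 519 below it. With fewer conditions to meet, such counts cannot be smaller than those against both lines. Without the filter on reads 399 genes lay 2-fold or more below both other lines.

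Of 18 list medians, 5 near 0 changed sign under a setting. Centring gave -0.0032 for oxidative phosphorylation and -0.0198 for the unfolded protein response, and at least 50 reads gave -0.14 for ATF4 targets. With 1 line left out, medians ran from -0.0463 to 0.37 (ATF4), -0.19 to 0.19 (receptor tyrosine kinases), -0.15 to 0.15 (unfolded protein response) and -0.0817 to 0.0831 (ribosome biogenesis). With a pseudocount of 10 the FOXO, ERK and histone medians were 1.11, 1.20 and 2.18. With at least 50 reads the ERK and histone medians were 0.94 and 2.77, and with centred libraries the YAP median was -0.74. Without Hep3B or Huh7 the medians ran from 1.29 to 1.44 (sterol), 0.93 to 1.10 (FOXO), 0.86 to 0.98 (ERK), -0.74 to -0.52 (DNA replication), -0.74 to -0.12 (matrix) and -0.54 to -0.52 (YAP). With 1 library a condition, depth limits genes such as MDGA1 and SESN3, which have no read in a library.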

Other observations

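Beyond the lists, calls on the higher side included enzymes of the urea cycle and of amino acid breakdown. They were noticed after their values were seen and form no fixed list. ASS1, argininosuccinate synthase, went from 17.7 to 227 normalised reads in MHCC97H and stood at 666 and 650 in Hep3B and at 544 and 1044 in Huh7 (difference 3.16, limma adjusted p = 0.0468). ASL, the next enzyme of the cycle, went from 565 to 221, from 366 to 180 and from 226 to 399 (difference 2.01, limma adjusted p = 0.0468). ALDH6A1, of valine breakdown, went from 124 to 903 in MHCC97H against 299.98 to 384 in Hep3B and 661 to 514 in Huh7 (difference 2.85, limma adjusted p = 0.0315), and MCCC1, of leucine breakdown, from 200.4 to 494 in MHCC97H (difference 1.66). CPS1, the first enzyme of the urea cycle, was listed at 0 reads in untreated MHCC97H and at 4.04 normalised reads with the combination. With the untreated library set at 3 reads the ratio was 1.75-fold. That ratio leaves out the counting error of the few combination reads, so a change in CPS1 is not established.

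EREG, a further EGF receptor ligand that lies near AREG on chromosome 4, went from 1996 to 222 in MHCC97H and stood at 153 and 218 in Hep3B and at 4.38 and 6.88 in Huh7 (difference -3.69, limma adjusted p = 0.0403). TUBA1A, an alpha-tubulin gene with near-identical copies elsewhere in the genome, went from 20.6 to 2655 in Hep3B and from 63.2 to 1543 in Huh7 and stood at 14.6 and 8.89 in MHCC97H (difference -6.42, limma adjusted p = 0.0453). TNFRSF12A, the receptor of the cytokine TWEAK, went from 448 to 849, from 398 to 845 and from 1527 to 678 (difference -2.17, limma adjusted p = 0.0272). LYZ, lysozyme, the only immune marker of 6 in the table, went from 1140 to 31.6 in Hep3B and from 7512 to 523 in Huh7, and had 1 read in untreated MHCC97H.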
